A study of Enchytraeus crypticus with 30 samples.

Results

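The genes described here are 74 array probes of the potworm Enchytraeus crypticus whose signal was lowered by both a nickel salt (NiNO3) and nickel nanoparticles (Ni-NPs) at the higher of the 2 concentrations tested, at both exposure times. They were selected on measured values. Of 43750 non-control probes, 24653 were kept because each of the 30 arrays detected them with a positive and significant signal. For each kept probe, the level on an array is the log2 processed signal minus the median of the kept probes on that array, and d is the mean level of 3 treated arrays minus that of 3 control arrays of the same day. Members have d of -0.8 or lower in all 4 comparisons at the EC50, the concentration that lowers reproduction by 50%. They make up 0.300% of the kept probes. Because the 4 EC50 comparisons chose the members, their values in these comparisons are given as a description, with no test.

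Each sample was a whole-body extract of 20 adult worms with a developed clitellum, kept in soil without food. The 10 conditions have 3 arrays each: Ni-NPs EC50, Ni-NPs EC20, NiNO3 EC50 and NiNO3 EC20, each at day 7 and day 3, and a control in un-spiked soil at day 7 and day 3. The EC20 lowers reproduction by 20%. The 2 forms were matched on this effect and not on the amount of nickel in the soil. The 3 replicates of a condition were separate biological replicates, as the study's methods give them, and worms were pooled within each. In whole-body RNA, fewer cells of a type and less RNA per cell cannot be told apart.

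Enchytraeids are small segmented worms that live in the litter and pore water of soil, and reproduction is the usual endpoint in their toxicity tests. A soluble nickel salt releases its ions at once, whereas metallic nickel particles can act as particles and also dissolve slowly in the soil. Nickel ions can replace other metals at protein sites and can cause oxidative damage. The probes carry only the name of a sequence (a contig number, or an identifier that starts with GYUW2K), with no gene name, so no function is given to any member. Contig numbers belong to 53 of the 74 members (71.6%) and to 50.9% of the kept probes.

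The arrays differed in how much they detected. Between 29661 and 40433 probes were positive and significant on an array, and between 44.9% and 76.3% were well above background. None of the kept probes was saturated. The 30 arrays lay on 10 slides scanned on 3 days (22, 5 and 3 arrays), and replicates of 1 condition were spread over slides. Of the 74 members, 45 were well above background on all 30 arrays, against 17007 of the 24653 kept probes. Because a kept probe had to be detected on every array, a probe without a positive and significant signal on any 1 array could not become a member. Members could still fail the flag for well above background on all arrays of a treatment.

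**Figure D1:**
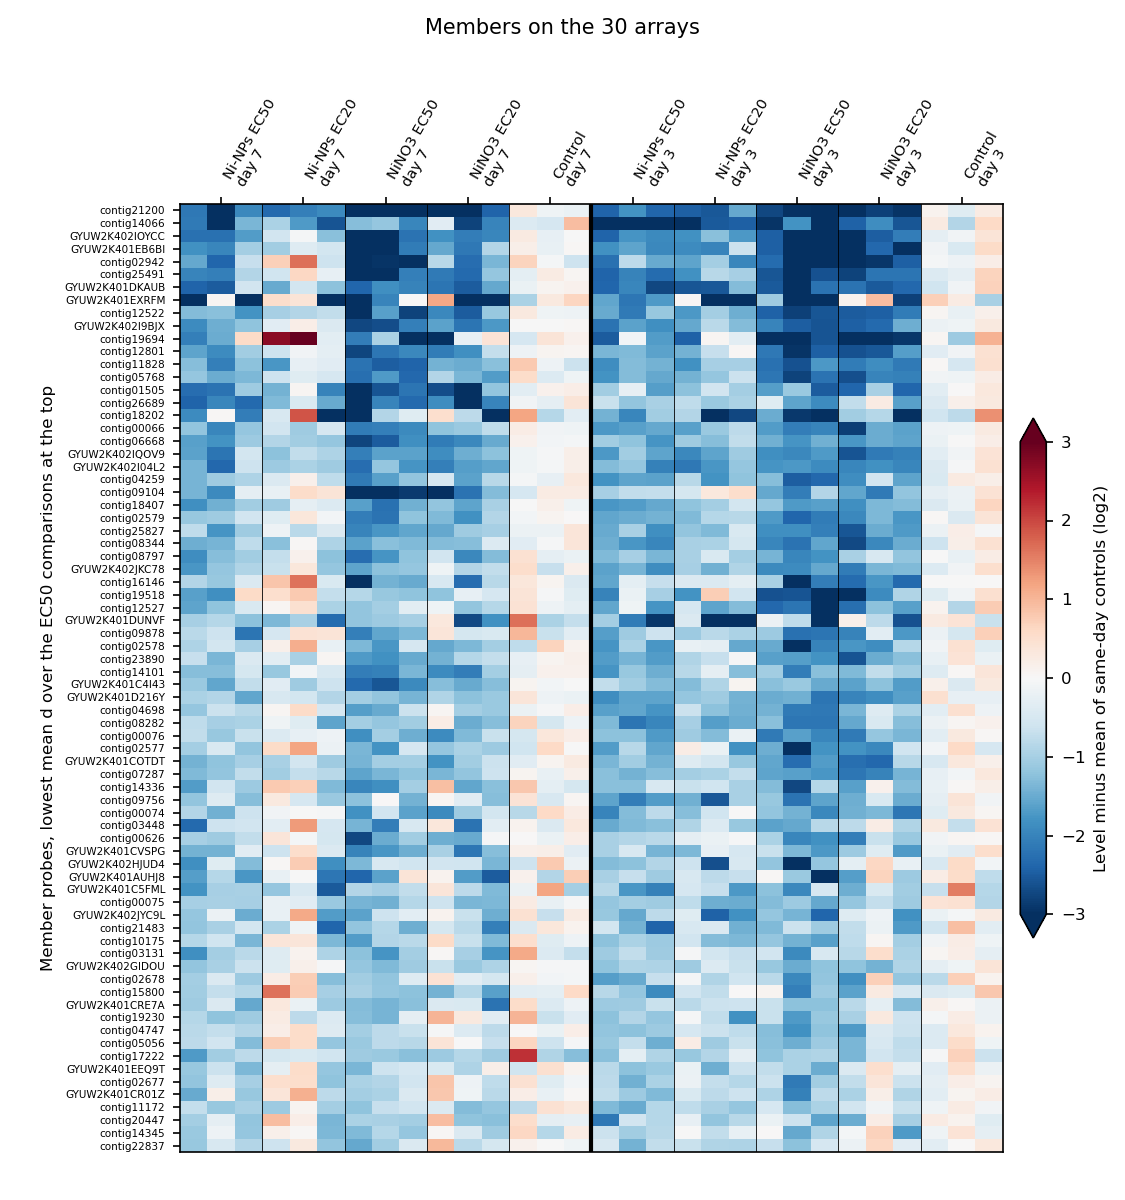
Level of each of the 74 members (rows, lowest mean d at the top) on each of the 30 arrays (columns, replicates 1 to 3 within a condition), minus the mean of the same-day controls, in log2 units; colours saturate at -3 and 3. The columns of Ni-NPs EC20 at day 7 are the palest of the treated columns, with 15 of 74 members above the control mean.

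The median d of the members was -1.12 in Ni-NPs EC50 and -1.39 in NiNO3 EC50 at day 7, and -1.35 in Ni-NPs EC50 and -1.70 in NiNO3 EC50 at day 3. In linear terms the median member was 2.17-fold lower than control in Ni-NPs EC50 at day 7, 2.62-fold lower in NiNO3 EC50 at day 7, 2.55-fold lower in Ni-NPs EC50 at day 3 and 3.25-fold lower in NiNO3 EC50 at day 3. The fall was smaller with another background correction. With normexp, a model-based correction, on the median signal and with an offset of 50, the median d was -0.495 in both Ni-NPs EC50 and NiNO3 EC50 at day 7. At day 3 it was -0.614 in Ni-NPs EC50 and -0.825 in NiNO3 EC50. An added constant makes log2 differences of dim signals smaller, and the part of the offset was not tested. Scaled to the spike-in transcripts, it was -0.857 in Ni-NPs EC50 and -1.01 in NiNO3 EC50 at day 7, and -1.24 in Ni-NPs EC50 and -1.29 in NiNO3 EC50 at day 3. The median d of all kept probes lay between -0.046 and -0.018 in these 4 comparisons. A d of -0.8 or lower was found for 3.39% of the kept probes in Ni-NPs EC50 at day 7, 3.34% in NiNO3 EC50 at day 7, 6.77% in Ni-NPs EC50 at day 3 and 4.67% in NiNO3 EC50 at day 3. By the rule, all 74 members are among these in each comparison.

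The mean d over the 4 comparisons ran from -2.82 to -0.881 over the members, with a median of -1.44. The lowest d was in NiNO3 EC50 at day 3 for 35 members and in NiNO3 EC50 at day 7 for 20 members, whereas it was in Ni-NPs EC50 for 8 members at day 3 and 2 members at day 7. The other 9 members had their lowest d at the EC20. As the EC50 comparisons chose the members, a lowest d at the EC50 is favoured by the selection. All 3 treated arrays lay below all 3 control arrays for 53 members in Ni-NPs EC50 at day 7 (5.31% of the kept probes), 60 in NiNO3 EC50 at day 7 (11.5%), 65 in Ni-NPs EC50 at day 3 (13.4%) and 66 in NiNO3 EC50 at day 3 (9.56%). For the remaining members, d passed the threshold although the arrays of the 2 conditions overlapped.

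**Figure D2:**
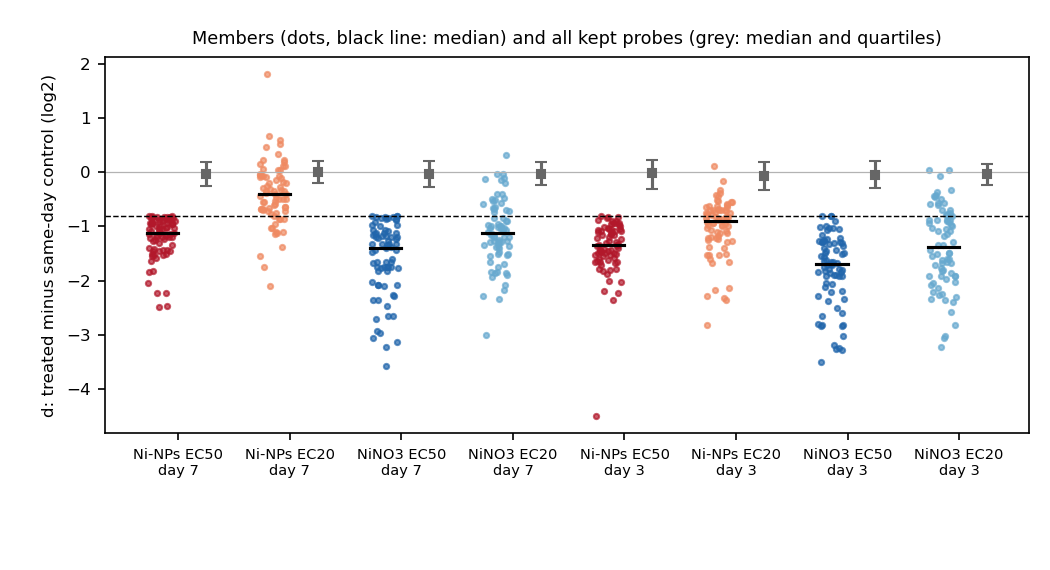
d (treated minus same-day control, log2) of the 74 members in the 8 treatments, with their median as a black line, beside the median and quartiles of all 24653 kept probes in grey; the dashed line is the threshold of -0.8. In the EC50 treatments all members lie below the line by the rule, and in Ni-NPs EC20 at day 7 their median is -0.41.

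The probe contig21200 had the lowest mean d. Its level was 0.30, -0.92 and 0.50 in Ni-NPs EC50 and -1.48, -0.99 and -0.94 in NiNO3 EC50 at day 7, against 2.76, 2.32 and 2.25 in the controls. At day 3 it was 0.60, 1.22 and 0.64 in Ni-NPs EC50 and 0.29, 0.04 and -0.37 in NiNO3 EC50, against 3.11, 2.65 and 3.26 in the controls. No treated array overlapped the controls, and the fall was also present at the EC20. There the level was 0.10, 0.40 and 0.54 in Ni-NPs EC20 and -0.90, -0.82 and 0.03 in NiNO3 EC20 at day 7. At day 3 it was 0.55, 0.47 and 1.47 in Ni-NPs EC20 and -0.45, 0.22 and 0.07 in NiNO3 EC20. The d of contig21200 was -2.10 in Ni-NPs EC20 at day 7, the lowest of the members in that treatment, and -3.005 in NiNO3 EC20 at day 7, also the lowest.

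Next in order were contig14066, GYUW2K402IOYCC, GYUW2K401EB6BI, contig02942 and contig25491, with mean d of -2.82, -2.59, -2.45, -2.44 and -2.40. The value of contig14066 includes Ni-NPs EC50 at day 3, where the probe was not well above background on any array, and with the normexp correction its mean d was -0.823, so its place in this order is not settled. GYUW2K402IOYCC had levels of 4.18, 4.18 and 4.75 in Ni-NPs EC50 and 2.85, 3.02 and 4.20 in NiNO3 EC50 at day 7, against 6.67, 6.17 and 6.40 in the controls. At day 3 the levels were 3.94, 4.55 and 4.42 in Ni-NPs EC50 and 3.89, 2.66 and 2.72 in NiNO3 EC50, against 6.05, 6.23 and 6.71 in the controls. All of these treated arrays lay below the controls, and the mean was lower in NiNO3 EC50 than in Ni-NPs EC50 at both days. For contig25491 the levels were 4.69, 4.64 and 5.80 in Ni-NPs EC50 and 3.23, 3.37 and 4.64 in NiNO3 EC50 at day 7, against 6.37, 6.93 and 6.73 in the controls. At day 3 they were 3.97, 4.37 and 4.06 in Ni-NPs EC50 and 3.81, 3.099 and 3.75 in NiNO3 EC50, against 5.95, 6.11 and 7.04 in the controls. In this probe too no treated EC50 array reached a control.

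The probe contig02942 had the lowest d of any member in NiNO3 EC50 at day 3 (-3.50). Its levels were 0.78, -0.07 and 1.63 in Ni-NPs EC50 and -1.34, -0.61 and -0.74 in NiNO3 EC50 at day 7, against 2.99, 2.27 and 1.70 in the controls. At day 3 they were 1.27, 2.71 and 2.00 in Ni-NPs EC50 and 1.20, -0.81 and -0.39 in NiNO3 EC50, against 3.44, 3.35 and 3.71 in the controls. At the EC20 and day 7 the means of the 2 forms lay on either side of the control mean. The level was 3.03, 3.98 and 1.71 in Ni-NPs EC20, with a mean above the control mean (d = 0.59), and 1.48, 0.03 and 0.94 in NiNO3 EC20 (d = -1.50). The arrays of both forms at the EC20 spanned more than 1 log2 unit.

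GYUW2K401DKAUB had a d between -2.66 and -1.82 in every treatment except Ni-NPs EC20 at day 7, where it was -1.10. Its levels were -0.56, -0.64 and 1.28 in Ni-NPs EC50 and -0.53, 0.00 and -0.16 in NiNO3 EC50 at day 7, against 1.65, 1.92 and 1.97 in the controls. At day 3 they were -0.55, -0.11 and -0.88 in Ni-NPs EC50 and -0.69, -1.39 and -0.39 in NiNO3 EC50, against 1.24, 1.75 and 2.54 in the controls. The third array of Ni-NPs EC50 at day 7 stood closest to the controls. For contig12522 the levels were 1.34, 1.41 and 0.85 in Ni-NPs EC50 and -1.04, 1.02 and -0.12 in NiNO3 EC50 at day 7, against 2.94, 2.52 and 2.49 in the controls. At day 3 they were 1.56, 0.95 and 1.94 in Ni-NPs EC50 and 0.67, 0.27 and 0.52 in NiNO3 EC50, against 3.15, 2.86 and 3.24 in the controls. No EC50 array of this probe overlapped the controls.

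GYUW2K401EXRFM and GYUW2K402I9BJX held ranks 8 and 10, with mean d of -2.22 and -2.06. At day 7 GYUW2K401EXRFM overlapped its controls in both EC50 treatments. Its highest level was 9.54 in Ni-NPs EC50 and 9.485 in NiNO3 EC50, against a lowest control of 8.53. The remaining 10 of the 20 members with the lowest mean d were contig19694, contig12801, contig11828, contig05768, contig01505, contig26689, contig18202, contig00066, contig06668 and GYUW2K402IQOV9, with mean d between -1.94 and -1.62. With the normexp correction the mean d of the 20 lay between -2.49 and -0.457, and 13 of them, contig21200 among these, were over 1.5 times smaller in size. It was then -0.457 for contig01505, -0.606 for contig19694, -0.688 for contig11828 and -0.749 for contig05768. Contigs were 14 of the 20, and 16 of the 20 were well above background on all 30 arrays. In contig26689 d was lower at day 7, at -2.23 in Ni-NPs EC50 and -2.66 in NiNO3 EC50. At day 3 it was -0.939 in Ni-NPs EC50 and -1.28 in NiNO3 EC50. The mean level of this probe in the controls was 1.48 at day 7 and 0.18 at day 3. Its treated means hardly differed between these days, at -0.75 and -0.75 in Ni-NPs EC50 and -1.18 and -1.10 in NiNO3 EC50. In contig18202 d with the salt was lower at day 3, at -2.83 in NiNO3 EC50, against -1.43 at day 7. The control mean of contig18202 was 0.86 at day 7 and 2.60 at day 3, and its NiNO3 EC50 mean was -0.57 and -0.24. Over all members d was higher at day 7 than at day 3 in 53 of 74 for Ni-NPs EC50 and in 50 of 74 for NiNO3 EC50, with median differences of 0.19 for Ni-NPs and 0.18 for NiNO3. The treated levels themselves were not higher at day 7. Averaged over the members, they were -0.191 at day 7 and -0.075 at day 3 in Ni-NPs EC50, and -0.579 and -0.491 in NiNO3 EC50. The controls were lower at day 7, at 1.022 against 1.325 at day 3.

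Where a member was not well above background on any array of a treatment, only a bound can be given, as the ratio of the control level to the lowest signal well above background on each treated array or to the probe's own signal, whichever is higher. This concerned 9 members in Ni-NPs EC50 at day 3, 6 in NiNO3 EC50 at day 7, 1 in Ni-NPs EC50 at day 7, 6 in NiNO3 EC20 at day 3 and 4 in NiNO3 EC20 at day 7. The probe contig14066 was at least 8.53-fold lower in Ni-NPs EC50 than in the controls at day 3, with levels of -3.90, -4.59 and -2.85 in Ni-NPs EC50 against 0.99, -0.16 and 1.33 in the controls. The probe contig19694 was at least 6.57-fold lower in NiNO3 EC20 than in the controls at day 3. The other bounds lay between 1.02-fold and 2.80-fold, so the size of those falls is not resolved.

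Just inside the threshold stood GYUW2K401CR01Z, contig04747 and contig02677, whose highest d was -0.801, -0.802 and -0.802. Just outside it stood GYUW2K402HMKMM, GYUW2K402G23YC and contig19432, whose highest d was -0.794, -0.793 and -0.791. These 3 probes had d of -0.988 or lower in the other comparisons, so the border of the group separates probes with nearly the same values.

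At the EC20 the members were lower than in the controls in nearly every comparison, and least so in Ni-NPs EC20 at day 7. These comparisons share their control arrays with the EC50 comparisons that chose the members, so they are described and not tested. The median d was -0.41 in Ni-NPs EC20 and -1.12 in NiNO3 EC20 at day 7, and -0.91 in Ni-NPs EC20 and -1.39 in NiNO3 EC20 at day 3. The median of all kept probes lay between -0.064 and -0.0021. The number of members below 0 was 59 of 74 in Ni-NPs EC20 at day 7, 73 in NiNO3 EC20 at day 7, 73 in Ni-NPs EC20 at day 3 and 72 in NiNO3 EC20 at day 3.

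The threshold of -0.8 was passed by 15 members in Ni-NPs EC20 at day 7 (2.30% of the kept probes), 53 in NiNO3 EC20 at day 7 (2.18%), 45 in Ni-NPs EC20 at day 3 (4.31%) and 56 in NiNO3 EC20 at day 3 (2.54%). In all 4 EC20 comparisons it was passed by 10 members and by 0.0527% of the kept probes, and 6 members passed it in none. All 3 treated arrays lay below all 3 control arrays for 16 members in Ni-NPs EC20 at day 7 (2.31% of the kept probes), 40 in NiNO3 EC20 at day 7 (4.57%), 41 in Ni-NPs EC20 at day 3 (8.53%) and 49 in NiNO3 EC20 at day 3 (5.08%). Ni-NPs EC20 at day 7 gave the highest d of the 8 treatments for 58 of the 74 members. The highest d was in NiNO3 EC20 for 3 members at day 7 and 6 at day 3, and in Ni-NPs EC20 at day 3 for 5. As the rule holds d at -0.8 or lower at the EC50, a highest d at the EC20 is favoured by the selection.

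**Figure D3:**
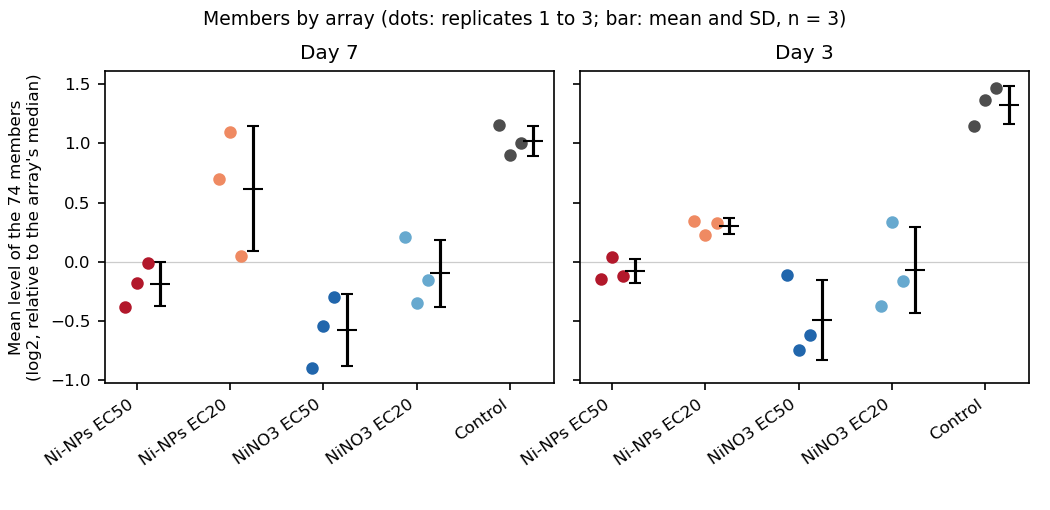
Mean level of the 74 members on each array (dots, replicates 1 to 3 from left to right, log2 relative to the array's median), with the mean and SD of 3 arrays, for the 4 treatments and the control at day 7 and day 3. The 3 arrays of Ni-NPs EC20 at day 7 span 0.052 to 1.10, and the second of them lies within the range of the controls.

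The mean level over the 74 members shows how the arrays of a condition differ. It was 0.702, 1.10 and 0.052 on the 3 arrays of Ni-NPs EC20 at day 7, against 1.16, 0.904 and 1.004 on those of the control. In NiNO3 EC20 at day 7 it was 0.209, -0.349 and -0.153. The second array of Ni-NPs EC20 at day 7 was thus at the level of the controls, whereas the third was within the range of the NiNO3 EC20 arrays. The second and the third of these arrays each lay alone on a slide and were scanned on the second scan day, and the second had 68.9% of its probes well above background, against 55.4% and 53.7% on the others. The part of slide and scan day in this spread was not tested. Without the third array the median d in Ni-NPs EC20 at day 7 was -0.14, and without the second it was -0.56.

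At day 3 the arrays of the nanoparticles at the EC20 were close to each other. The mean level over the members was 0.348, 0.229 and 0.330 in Ni-NPs EC20 and -0.377, 0.337 and -0.166 in NiNO3 EC20, against 1.15, 1.36 and 1.47 in the controls. At the EC50 the mean over 3 arrays was -0.191 ± 0.186 in Ni-NPs and -0.579 ± 0.304 in NiNO3 at day 7, against 1.02 ± 0.128 in the controls (SD, n = 3). At day 3 it was -0.075 ± 0.102 in Ni-NPs EC50 and -0.491 ± 0.337 in NiNO3 EC50, against 1.33 ± 0.164 in the controls (SD, n = 3). No array of either EC50 treatment came within the range of the controls of its day.

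Within single slides the median difference between treated worms and controls was also below 0 in the members. The control arrays, and at the EC50 also the treated arrays, entered the rule, so this is a description. Each of these comparisons rests on 1 treated array. On the slides that held a treated and a control array of the same day, the median difference was -1.20 for Ni-NPs EC50 and -1.79 for NiNO3 EC50 at day 7 (slide 4), and -2.01 for NiNO3 EC50 at day 3 (slide 8). For the EC20 it was -1.05 and -1.33 for NiNO3 at day 7 (slides 1 and 5), -0.852 and -1.16 for Ni-NPs at day 3 (slides 3 and 8) and -0.963 for NiNO3 at day 3 (slide 3). Above 0 were 17 of 74 members for NiNO3 EC20 at day 3 (slide 3), 16 for NiNO3 EC20 at day 7 (slide 1), and at most 5 in each of the others. No slide held Ni-NPs EC20 at day 7, or Ni-NPs EC50 at day 3, with a control of the same day. With slide as a term in the fit, the median d in Ni-NPs EC20 at day 7 was -0.90 in place of -0.41. That value rests on the first array of this treatment alone, because the second and the third were the only arrays on their slides. The other arrays on the slide of the first were EC50 arrays, which entered the rule.

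The direction depended on the scale in Ni-NPs EC20 at day 7. Scaled to the spike-in transcripts, the median d of the members there was 0.12, and 30 of 74 members were below 0. On that scale the median d of all kept probes was 0.53 in this treatment, and 59 of 74 members were below this median. In the other 7 treatments the median of the members stayed below 0 on each of the 5 scales and the background correction tried, the smallest in size being -0.13 in Ni-NPs EC20 at day 3 on the spike-in scale, where the median of all kept probes was 0.72.

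The step between the 2 concentrations was described as EC50 minus EC20 of the same form and day. Its median over the members was -0.75 for Ni-NPs and -0.45 for NiNO3 at day 7, and -0.44 for Ni-NPs and -0.39 for NiNO3 at day 3. The level was lower at the EC50 in 71 of 74 members for Ni-NPs and 63 for NiNO3 at day 7, and in 65 for Ni-NPs and 59 for NiNO3 at day 3. Of all kept probes, 54.9% were lower at the EC50 for Ni-NPs and 51.6% for NiNO3 at day 7. At day 3 these shares were 46.6% for Ni-NPs and 50.2% for NiNO3. Because the EC50 arrays chose the members, a lower level at the EC50 is favoured by the selection itself.

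Whether the 2 nickel forms differed at the EC20 was tested between the EC20 arrays, whose levels did not enter the values of d that chose the members, with limma on all kept probes. These arrays did enter the detection filter, and the spread was estimated from all 30 arrays. At day 7 the members were higher in Ni-NPs EC20 than in NiNO3 EC20 in 67 of 74 cases, with a median difference of 0.64, against 53.3% of all kept probes and a median of 0.027. After Benjamini-Hochberg adjustment 2 members were called, both higher in Ni-NPs EC20, among 15 kept probes called in either direction (0.0608%). At an unadjusted p under 0.05, 30 members were higher in Ni-NPs EC20 (5.45% of the kept probes) and 0 were lower (2.54%).

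The first called member was GYUW2K402I9BJX. Its level was 1.43, 1.98 and 1.35 in Ni-NPs EC20 and 0.17, -0.43 and 0.06 in NiNO3 EC20 at day 7. The arrays of the 2 forms did not overlap, and the difference was 1.65 ± 0.278 on the log2 scale (SE, limma adjusted p = 0.0213), a 3.14-fold higher level with the particles. The controls of that day stood at 1.76, 1.75 and 1.81, so that the particle arrays spread around them and the salt arrays were all lower. At day 3 the level was -0.10, 0.63 and 0.14 in Ni-NPs EC20 and -1.02, -0.90 and -0.04 in NiNO3 EC20, and there the 2 forms overlapped.

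The second was contig09104. Its level was 4.33, 5.12 and 4.95 in Ni-NPs EC20 and 1.56, 2.36 and 3.26 in NiNO3 EC20 at day 7, a difference of 2.41 ± 0.417 (SE, limma adjusted p = 0.0259), or 5.31-fold. The arrays of the 2 forms did not overlap. The controls of that day stood at 4.08, 4.82 and 4.81. At day 3 the level was 3.54, 4.38 and 4.60 in Ni-NPs EC20 and 2.51, 1.95 and 2.89 in NiNO3 EC20, again without overlap, but the difference of 1.72 had a limma adjusted p of 0.286. At the EC50, which chose the probe, the level was 3.17, 2.66 and 4.30 in Ni-NPs EC50 and 1.57, 1.54 and 1.70 in NiNO3 EC50 at day 7.

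These 2 calls changed with single arrays and with the processing. Both were lost without the second array of Ni-NPs EC20 at day 7 (0 members called) and without the second array of NiNO3 EC20 at day 7 (0 called), and 1 was lost without the first or the third array of NiNO3 EC20 or the third of Ni-NPs EC20 (1 called each). Both were also lost on the spike-in scale, with no filter, in a fit to only the arrays compared and with the per-probe test that the study's methods name, and 1 was lost with the normexp correction. With slide as a term the differences were 1.08 for GYUW2K402I9BJX and 2.13 for contig09104. That fit takes Ni-NPs EC20 at day 7 from its first array alone, as the second and the third each lay alone on a slide. It therefore cannot test the calls. No slide held both forms at the EC20 and day 7. Within scan day 1 the median difference of the members was 0.61, and within scan day 2 it was 0.62. Scan day 1 held 1 array of Ni-NPs EC20 and 2 of NiNO3 EC20 at day 7, and scan day 2 held 2 and 1. GYUW2K402I9BJX differed by 1.56 and 1.61 within these scan days, and contig09104 by 2.38 and 1.77.

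The next members by p at day 7 were contig02579, contig25491 and GYUW2K402GIDOU, with differences of 1.29, 1.79 and 0.82 and limma adjusted p of 0.0847, 0.116 and 0.162. The largest difference belonged to contig19694, at 3.00, where the level was 2.01, 2.31 and -1.01 in Ni-NPs EC20 and -4.45, -0.94 and -0.29 in NiNO3 EC20 at day 7. The arrays of both forms spread over more than 3 log2 units and overlapped. This probe was well above background on 24 of the 30 arrays.

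At day 3 the same comparison gave no call. The members were higher in Ni-NPs EC20 than in NiNO3 EC20 in 54 of 74 cases, with a median difference of 0.36, against 48.3% of all kept probes and a median of -0.017. No member and no kept probe (0%) passed the limma threshold after adjustment. At an unadjusted p under 0.05, 28 members were higher in Ni-NPs EC20 (4.94% of the kept probes) and 2 were lower (4.02%). The smallest p belonged to contig07287, contig12801 and contig05768, with differences of 0.97, 1.57 and 1.14, each with an adjusted p of 0.265. Without the third array of NiNO3 EC20 at day 3, 2 members were called among 26 kept probes. On slide 3, which held 1 array of each form, the median difference was -0.046, and within scan day 1 it was 0.40. Scan day 1 held 1 array of Ni-NPs EC20 and 3 of NiNO3 EC20 at day 3.

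**Figure D4:**
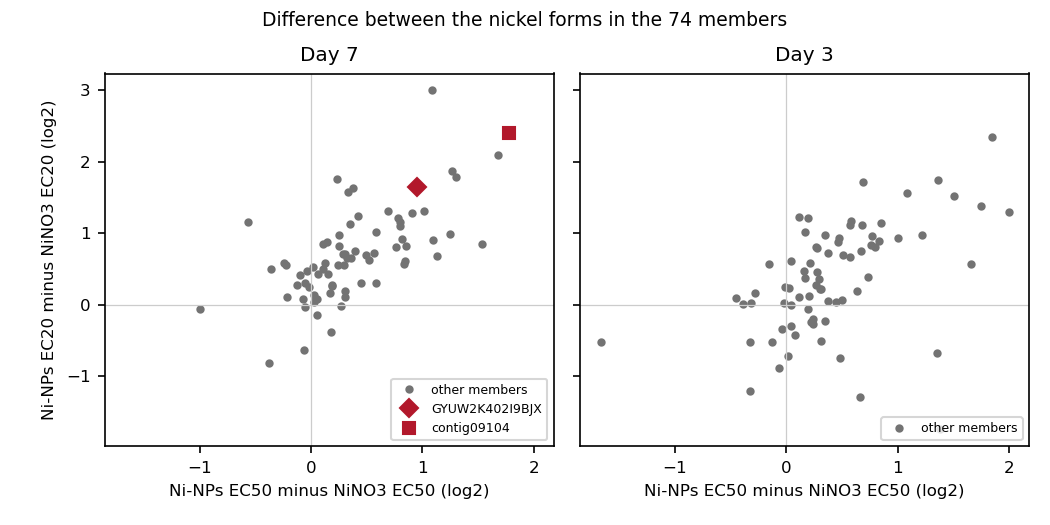
Difference between the nickel forms (Ni-NPs minus NiNO3, log2) in the 74 members, at the EC50 on the horizontal axis and at the EC20 on the vertical axis, at day 7 and day 3. Most points lie in the upper right (56 of 74 at day 7 and 47 of 74 at day 3), and the red symbols mark the 2 members called at the EC20 and day 7.

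The difference between the forms at the EC50 was described in the same way. Ni-NPs EC50 was higher than NiNO3 EC50 in 59 of 74 members at day 7 and in 61 of 74 at day 3, with median differences of 0.30 at each day, against medians of -0.0078 at day 7 and 0.027 at day 3 over all kept probes. Of all kept probes, 48.7% were higher in Ni-NPs EC50 at day 7 and 54.1% at day 3. The difference at the EC20 and that at the EC50 come from separate arrays. Over the 74 members they had a Pearson r of 0.663 and a Spearman rho of 0.698 at day 7, and 0.477 and 0.546 at day 3. Over all 24653 kept probes r was 0.286 at day 7 and -0.253 at day 3. Each point shares its arrays with all others, and members chosen by level in the EC50 treatments are not independent, so these are descriptions only.

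Between the 2 days of exposure to NiNO3 EC20, the members as a group did not move in 1 direction. The difference of day 7 minus day 3 was above 0 in 35 of 74 members, with a median of -0.019, against 48.2% and -0.023 over all kept probes. The limma test called 135 kept probes (0.548%), and 33 of them were higher at day 7 (0.134%). Of the members 3 were called, and all of these were higher at day 7.

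GYUW2K401EB6BI had levels of 5.15, 4.54 and 5.79 at day 7 and 2.51, 3.81 and 3.08 at day 3 in NiNO3 EC20, a difference of 2.02 ± 0.460 (SE, limma adjusted p = 0.0434). The controls stood at 6.85, 6.46 and 6.71 at day 7 and 6.06, 5.70 and 6.73 at day 3. The treated arrays of the 2 days did not overlap, and all of them lay below every control of the same day. The third at day 7, at 5.79, was above 1 control of day 3, at 5.70. The probe contig12801 had levels of 3.12, 3.38 and 4.502 at day 7 and 1.72, 1.79 and 2.68 at day 3, a difference of 1.60 ± 0.364 (SE, limma adjusted p = 0.0434). Its controls were also higher at day 7, at 5.07, 5.30 and 5.28, against 3.98, 4.22 and 4.77 at day 3. The probe contig07287 had levels of 6.88, 7.06 and 7.63 at day 7 and 5.84, 6.01 and 6.61 at day 3, a difference of 1.03 ± 0.218 (SE, limma adjusted p = 0.0309). Neither of these probes overlapped between the 2 days.

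The number of such calls changed with single arrays and with the processing. It was 0 on the spike-in scale, with the normexp correction, with no filter, in a fit to only the arrays compared and with the per-probe test of the study's methods. It was 0 without the first or the second array of NiNO3 EC20 at day 3 and 0 without the second or the third at day 7. It was 5 without the third array at day 3, where 662 kept probes were called in place of 135, and 9 without the first at day 7, where 1329 kept probes were called. With slide as a term no member was called, and the adjusted p was 0.162 for GYUW2K401EB6BI, 0.112 for contig12801 and 0.135 for contig07287. On slide 1, which held 1 array of each day, the differences were 2.64 for GYUW2K401EB6BI, 1.4 for contig12801 and 1.04 for contig07287, and the median over the members was 0.55. Within scan day 1, which held 2 NiNO3 EC20 arrays of day 7 and 3 of day 3, the median over the members was 0.0063. There GYUW2K401EB6BI differed by 1.71, contig12801 by 1.19 and contig07287 by 0.814.

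In Ni-NPs EC20 the members were higher at day 7 than at day 3 in 48 of 74 cases, with a median difference of 0.35, against a median of 0.024 and 52.5% of all kept probes. No member was among the 22 kept probes called by limma (0.0892%). At an unadjusted p under 0.05, 15 members were higher at day 7 (6.71% of the kept probes) and 2 were lower (4.64%). GYUW2K402I9BJX came closest, with levels of 1.43, 1.98 and 1.35 at day 7 and -0.10, 0.63 and 0.14 at day 3, a difference of 1.36 ± 0.278 (SE, limma adjusted p = 0.0573). These arrays did not overlap. Without the first array of Ni-NPs EC20 at day 7, 1 member was called among 164 kept probes.

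**Figure D5:**
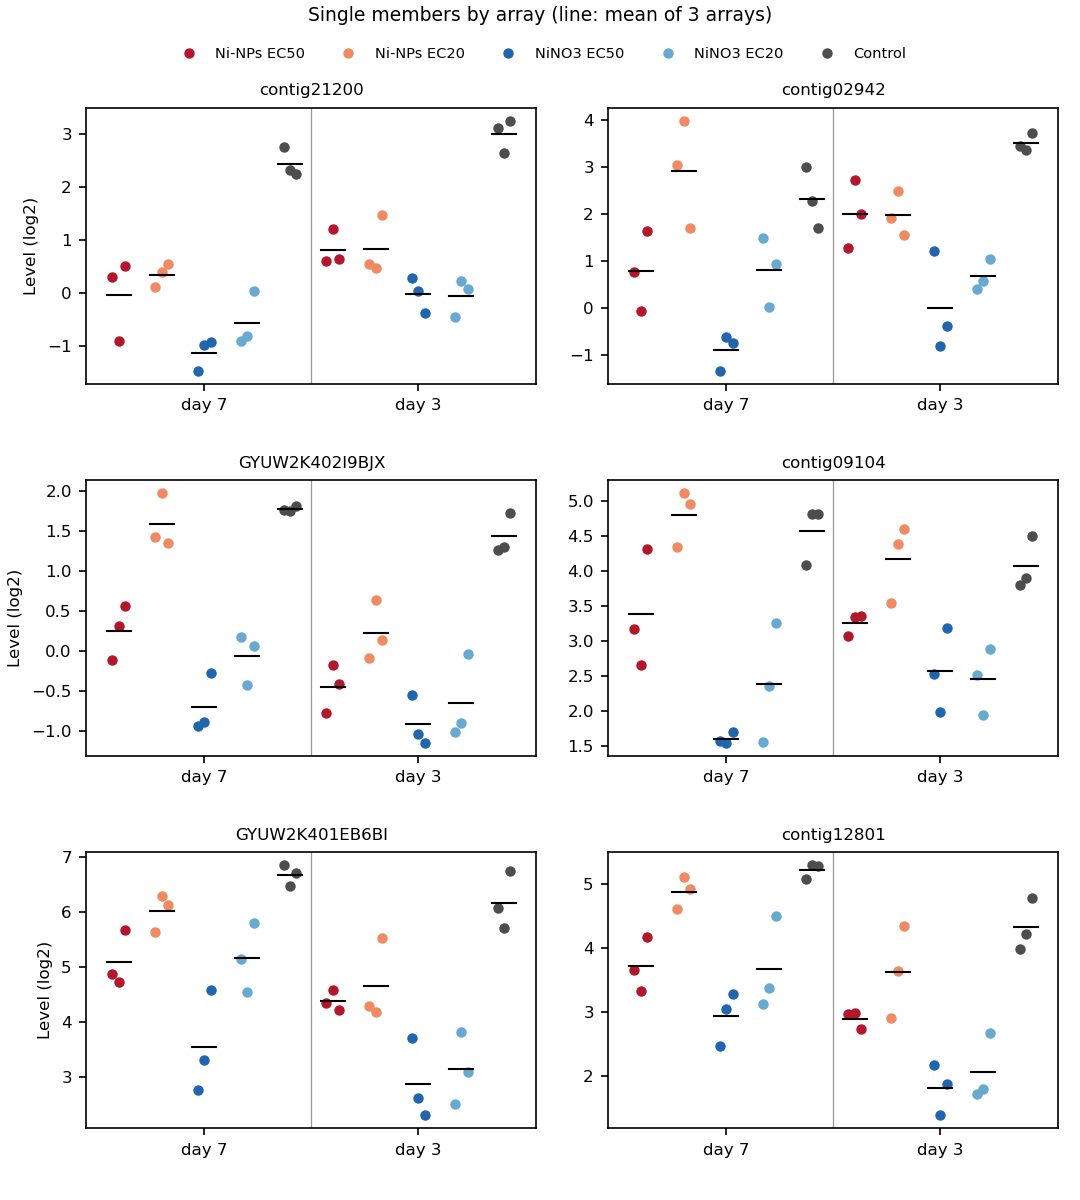
Level (log2, relative to the array's median) of 6 members on each array at day 7 and day 3, with the mean of 3 arrays as a line. In contig09104 and GYUW2K402I9BJX the Ni-NPs EC20 arrays at day 7 lie above all NiNO3 EC20 arrays of that day, and in contig21200 all treated arrays lie below all controls.

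In the controls themselves the members had a median difference of -0.25 between day 7 and day 3, with 27 higher and 47 lower at day 7, against a median of -0.039 over all kept probes. Of all kept probes, 46.4% were higher at day 7. The following range is that of the members. The difference ran from -2.19 to 1.30 and was over 1 in size for 14 members. The control arrays entered the rule, so this is a description. A member's d at the 2 days is therefore set against control levels that differ.

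The median spread between replicates was larger over the members than over all kept probes in each of the 10 conditions. The EC50 and control arrays entered the rule, and a choice by means of 3 arrays can favour probes with a wide spread, so this is a description. The median SD of 3 arrays was 0.641 over the members in Ni-NPs EC20 at day 7, against 0.431 over the kept probes, and 0.31 over the members in Ni-NPs EC50 at day 3, against 0.189. The SD pooled over the 10 conditions ran from 0.238 to 1.76 over the members, with a median of 0.533. It was above 1 in 5 members, GYUW2K401EXRFM, contig18202, contig19694, GYUW2K401DUNVF and GYUW2K401AUHJ8, which are singled out here after their values were seen.

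GYUW2K401EXRFM had the widest spread. Its level was 10.11, 6.90 and 6.25 in Ni-NPs EC20 and 10.19, 10.99 and 7.29 in NiNO3 EC20 at day 3, against 10.80, 10.33 and 9.10 in the controls. At day 7 it was 10.64, 6.495 and 5.59 in NiNO3 EC20, against 8.53, 9.76 and 10.12 in the controls. Within a condition its arrays thus ranged from the level of the controls to several log2 units below it. The deviations of GYUW2K401EXRFM from the condition means went with those of contig18202 (r = 0.726 over 30 arrays) and GYUW2K401DUNVF (r = 0.586). Those of contig19694 ran the other way, with r of -0.433 against GYUW2K401EXRFM and -0.478 against GYUW2K401DUNVF, but only -0.164 against contig18202. The median r over all pairs of members was 0.218. On the second and the third arrays of Ni-NPs EC20 at day 3 all 3 probes were low. There contig18202 had 1.73, -0.89 and -0.13 and GYUW2K401DUNVF had -1.52, -4.46 and -4.16. These r come from the same arrays and are given without a test.

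Among the members, 8 had consecutive contig numbers, in 3 runs: contig00074 to contig00076, contig02577 to contig02579, and contig02677 with contig02678. Over the 30 arrays r between neighbours was 0.42 and 0.55 in the first run, 0.98 and 0.77 in the second, and 0.866 in the third. The median r over 6136 pairs of kept probes with consecutive contig numbers was 0.0747, and over all 2701 pairs of members it was 0.542. The probes contig02577 and contig02578 followed each other array by array. In Ni-NPs EC20 at day 7 contig02577 had 6.21, 6.82 and 5.45 and contig02578 had 5.33, 6.26 and 4.97. In the controls of that day they had 5.05, 6.25 and 5.62 and 4.42, 5.84 and 5.29. Probes of 1 run may measure related sequence, which the sources used here do not settle, so the 74 members need not be 74 separate genes. Of 44 other kept probes with a contig number next to that of a member, 14 had d below 0 in all 4 EC50 comparisons, a pattern shared by 21.8% of the kept probes. Among them was contig00073, with d of -1.61 in both EC50 treatments at day 3, and -0.747 in Ni-NPs EC50 and -1.55 in NiNO3 EC50 at day 7.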

How the data were processed

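RNA of 30 samples was hybridised to 1-colour Agilent arrays (Cy3). The deposited scanner files were made by the authors with Agilent Feature Extraction 10.7.3.1. Their processed signal is a linear spot intensity, corrected for background within each array by that software, with no normalization across arrays. Other deposited columns give flags for detection, background, saturation and outliers, used here as yes or no values, and the median spot and background intensities. A deposited series table repeats these intensities, and the largest difference was 0.0072 on the log2 scale. Genome build and gene annotation are not given in the sources used here.

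Non-control probes (43750 of 45167 spots) were kept when positive and significant on all 30 arrays (24653). Levels were log2 processed signals minus the array's median. The members and the rule for naming them were chosen with earlier results of these data known. Members were named as the 20 with the lowest mean d, 3 on each side of the threshold of -0.8, and up to 5 called in each test. Levels on single arrays were given for some of the lowest members that were well above background on all arrays, and for the called members. Comparisons between EC20 arrays, which entered the detection filter but not the values of d that chose the members, were tested with limma 3.58.1 in R 4.3.3, in 1 fit of the 10 condition means to all 30 arrays, with p-values adjusted per comparison by the Benjamini-Hochberg method over all 24653 probes and a threshold of 0.05. The files were read with the R package data.table (version 1.17.8). The fit and the rule were checked on simulated data. The number of arrays limits the precision. The alternatives were other scales, background corrections, filters, blocks, tests and thresholds, and leaving out each array. The normexp correction added an offset of 50 to the corrected signal. Replicate numbers were checked for pairing and were not taken as pairs.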

Additional observations from a re-analysis of the deposited data

Results flagged for a closer look

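In 2 members the response to the nickel forms differed at the EC20, by a limma test of the difference between the 2 treatments at day 7. GYUW2K402I9BJX was 1.65 higher on the log2 scale in Ni-NPs EC20 than in NiNO3 EC20 (adjusted p = 0.0213), with all 3 Ni-NPs arrays above all 3 NiNO3 arrays. Its adjusted p ranged from 0.0101 to 1 over the alternatives. The probe contig09104 was 2.41 higher in Ni-NPs EC20 (adjusted p = 0.0259), again without overlap, and its adjusted p ranged from 0.00137 to 1. Both kept their direction under each alternative run.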

How the results depend on the processing

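The number of members depended on scale, background and filter. It was 37 with SVCD normalization (all 37 among the 74), 32 on the spike-in scale (all among the 74), 17 with a normexp background correction on the median signal (all among the 74; chosen after seeing the data, as the planned version on the mean signal was not run because the files used here hold no such column), 129 with no filter (44 of the 74 among them), 188 at a threshold of -0.6 and 32 at -1.0. Leaving out single arrays of the groups compared gave 61 to 108. The median d in Ni-NPs EC20 at day 7 was 0.122 on the spike-in scale. On that scale it was -0.127 in Ni-NPs EC20 at day 3, -0.941 in NiNO3 EC20 at day 3 and -0.759 in NiNO3 EC20 at day 7. The median d of all kept probes was then between 0.093 and 0.716, and with SVCD between -0.0828 and 0.215. With normexp the median d was -0.438 in Ni-NPs EC20 at day 3, -0.648 in NiNO3 EC20 at day 3 and -0.445 in NiNO3 EC20 at day 7, and with SVCD it was -0.647 in Ni-NPs EC20 at day 3.

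For Ni-NPs EC20 minus NiNO3 EC20, 7 members were called at day 3 with SVCD (117 of all kept probes), and 0 to 2 without single arrays. At day 7, 0 were called on the spike-in scale, with no filter, in a fit to only the arrays compared and with the methods' t-test, 1 with normexp, and 0 to 2 without single arrays. Slide as a block left only 1 array of Ni-NPs EC20 to the comparison at day 7 and is not counted there. For day 7 minus day 3 in NiNO3 EC20, 8 were called with SVCD (2580 of all kept probes), 5 with the replicate block, 0 on the spike-in scale, with normexp, with no filter, with slide as a block, in the fit to only the arrays compared and with the t-test, and 0 to 9 without single arrays. In Ni-NPs EC20, 1 was called with SVCD (30 of all kept probes), normexp (12), the filter on probes well above background (43), an intensity trend (46) and the replicate block (38), and 0 to 1 without single arrays. Replicate numbers were not taken as pairs, since the correlation of same-numbered deviations lay between -0.356 and 0.681 and was over 0.1 in 15 of 36 pairs. The cause of these changes was not tested.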
